A study of Homo sapiens with 4 samples.

Results

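The human olfactory receptor (OR) genes of chromosome 11 were examined in ATAC-seq peak lists of pancreatic progenitors (PPs). The members are those protein-coding genes on this chromosome in GENCODE release 44 whose symbol is OR followed by a family number, 1 or 2 letters and a gene number. This rule gave 172 of 20033 protein-coding genes. Peaks of the 4 libraries were merged where they overlapped, and 84 of the 164301 merged regions lay within 10 kb of the body of a member. The PPs were derived from MEL1, an established human embryonic stem cell line that the study's methods name MEL1 INS GFP/W, with GFP at 1 allele of the insulin gene, and every library was made from 50000 cells. All cells were kept for 7 days in a medium that contained EGF at 50 ng/ml, bFGF at 10 ng/ml and the kinase inhibitor 616452 at 10 µM. The control cells received DMSO (EF6 medium) and the treated cells 1 µM I-BET151 (EF6I medium), an inhibitor of BET bromodomains. There were 2 libraries per condition from 1 cell line, and since no source says that they came from separate cultures, p-values measure only the spread between libraries.

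Olfactory receptors are G protein-coupled receptors that bind odorants on the cilia of olfactory sensory neurons. Each such neuron expresses a single OR gene from a single allele, and the other OR genes lie in compact heterochromatin there, as they do in most other cell types. The family has class I genes, which are related to the receptors of fish and form a cluster on the short arm of human chromosome 11, and class II genes, which are spread over many chromosomes. The coding sequence of an OR gene usually lies in a single exon, with non-coding exons upstream of it. ATAC-seq uses a transposase that cuts open chromatin, so a called peak marks DNA that was more accessible than its surroundings in some of the cells. It does not measure expression, and RNA of the OR genes was not analysed here.

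The lists differed in size and depth. They held between 38295 peaks (DMSO replicate 2) and 111324 peaks (I-BET151 replicate 2). The background that the peak caller assumed put the DMSO libraries at 38.7 and 36.6 M reads and the I-BET151 libraries at 12.5 and 16.0 M reads, so sequencing depth and condition cannot be told apart. Of 10 genes that mark PPs, the promoter was called for 8, 7, 9 and 9 in DMSO replicates 1 and 2 and I-BET151 replicates 1 and 2. Those of SOX9, NKX6-1 and FOXA2 were among the 7 called in every list, PDX1 was called in both lists of treated cells alone, and PTF1A in none. Of 4 endocrine genes the promoter was called for 1, 0, 2 and 1, and NEUROG3 was called in no list.

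Few OR genes had any accessible region. Of the 172 members, 109 had no region within 10 kb in any list, 43 had 1 region, 13 had 2, 4 had 3, 1 had 4 and 2 had 9, so that 36.6% had a region compared with 92.4% of all protein-coding genes. Such shares depend on gene length as well, for which they were not adjusted. The windows of the 172 members covered 3.56 Mb and those of all 20033 protein-coding genes 1513 Mb. Per Mb of windows there were 23.6 regions for the members and 67.8 for all protein-coding genes. Around the 1145 other protein-coding genes of chromosome 11 there were 72.4 per Mb. The 228 OR genes of other chromosomes came to 22.8 regions per Mb, and 32.0% of them had a region. The 240 ZNF genes of chromosome 19, another clustered family, reached 39.3 regions per Mb. The 70 other protein-coding genes that lie between the OR genes, within the same stretches of chromosome, had 58.1 regions per Mb. The low density was thus seen around OR genes on and off chromosome 11. The 70 genes within the stretches had a higher density than the OR genes, but a lower one than the 1145 genes, which include them. A stretch can hold gaps of up to 1 Mb without an OR gene, so these 70 need not be direct neighbours of OR genes. A region was found for 82.9% of the 70 genes and 95.2% of the 1145. These counts are descriptions without a test.

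**Figure D1:**
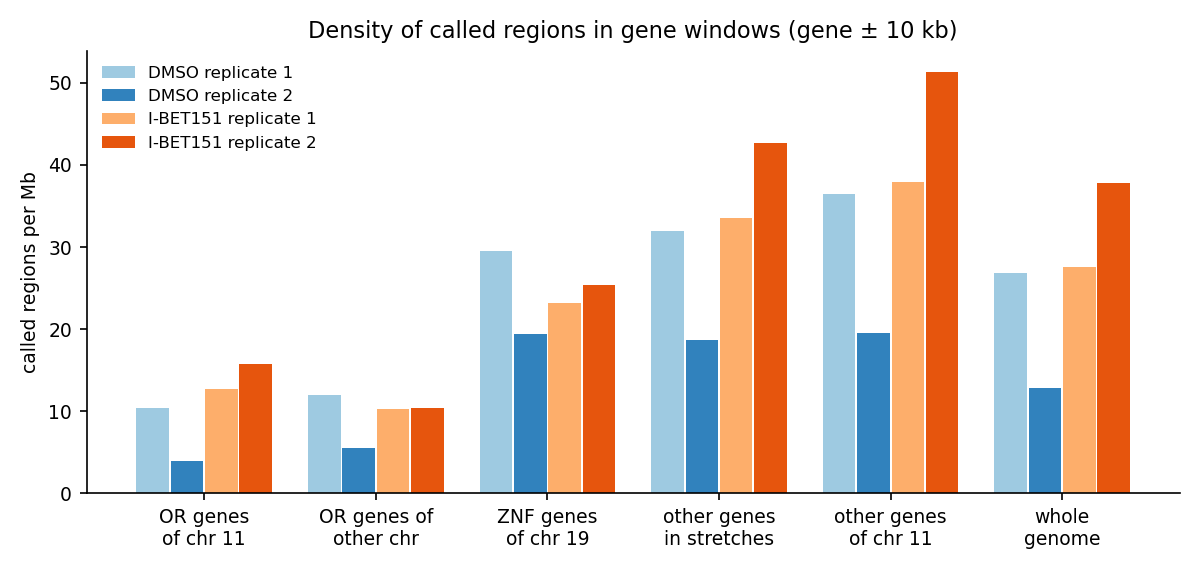
Called regions per Mb of gene windows (gene body and 10 kb on each side) for 5 gene sets, and per Mb of the whole genome, with 1 bar for each of the 4 libraries. The OR genes of chromosome 11 had 10.4 and 3.94 regions per Mb in the DMSO libraries and 12.6 and 15.7 in the I-BET151 libraries, below the other chromosome 11 genes in each library.

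Promoters of OR genes were rarely called. A region overlapped the window of 1 kb on each side of the start for 8 of 172 members (4.65%) in at least 1 list, whereas this held for 73.8% of all protein-coding genes. The promoter of OR51D1, a class I receptor, was called in all 4 lists, and that of OR51I2, also class I, in both I-BET151 lists and neither DMSO list. The other 6 were called in a single list each. OR52K1, OR9Q1 and OR8D2 were called in I-BET151 replicate 2, and OR2AT4, OR6M1 and OR10S1 in DMSO replicate 1. In DMSO replicates 1 and 2 there were 4 and 1 called promoters (2.5 ± 2.12, SD, n = 2), and in I-BET151 replicates 1 and 2 there were 2 and 5 (3.5 ± 2.12, SD, n = 2). Of all protein-coding genes, 61.1%, 56.1%, 66.5% and 70.4% had a called promoter in these libraries. The members' groups overlapped (p = 0.67, exact permutation test, two-sided).

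The sequences at the summits of 7 regions are shown here, 100 bases on each side of the summit. They include regions called in every library, called only after I-BET151, and called only with DMSO, but do not stand for all regions of each kind. They are from hg38, plus strand, 5′ to 3′. Capitals mark the best match to the core consensus of CTCF, a zinc finger protein that anchors chromatin loops, on either strand with at most 2 mismatches; the sequence at OR5A1 has no such match and lies in its coding exon. OR5A2 and OR8A1 were chosen after their sequences were seen. Apart from OR5A1, every sequence shown matches with at most 1 mismatch. Such a match was found in only 3 of the 8 OR regions called in every library. Of the 25 called in both I-BET151 lists and neither DMSO list, 9 had one.
OR51D1, called in every library, chr11:4637011-4637211: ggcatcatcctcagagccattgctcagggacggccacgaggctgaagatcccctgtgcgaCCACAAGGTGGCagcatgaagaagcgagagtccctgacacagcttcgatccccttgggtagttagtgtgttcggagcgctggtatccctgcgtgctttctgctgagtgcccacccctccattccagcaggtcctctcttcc
OR52A5, called in every library, chr11:5124153-5124353: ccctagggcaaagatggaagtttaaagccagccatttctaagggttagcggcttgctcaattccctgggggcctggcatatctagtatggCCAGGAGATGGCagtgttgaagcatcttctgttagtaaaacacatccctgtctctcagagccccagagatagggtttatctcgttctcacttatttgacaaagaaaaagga
OR10D3, called in every library, chr11:124195183-124195383: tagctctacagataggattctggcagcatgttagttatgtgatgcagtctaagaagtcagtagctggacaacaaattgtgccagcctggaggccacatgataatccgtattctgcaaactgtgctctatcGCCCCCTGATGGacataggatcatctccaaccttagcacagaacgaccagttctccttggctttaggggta
OR51B5, gained, chr11:5476367-5476567: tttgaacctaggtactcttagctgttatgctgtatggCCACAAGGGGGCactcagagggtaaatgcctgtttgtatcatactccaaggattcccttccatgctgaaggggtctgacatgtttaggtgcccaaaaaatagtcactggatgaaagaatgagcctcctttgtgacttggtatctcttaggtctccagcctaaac
OR5A2, gained, chr11:59430032-59430232: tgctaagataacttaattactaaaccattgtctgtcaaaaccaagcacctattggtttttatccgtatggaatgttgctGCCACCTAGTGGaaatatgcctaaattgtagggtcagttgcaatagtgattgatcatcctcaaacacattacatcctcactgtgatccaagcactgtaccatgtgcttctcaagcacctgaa
OR8A1, gained, chr11:124586284-124586484: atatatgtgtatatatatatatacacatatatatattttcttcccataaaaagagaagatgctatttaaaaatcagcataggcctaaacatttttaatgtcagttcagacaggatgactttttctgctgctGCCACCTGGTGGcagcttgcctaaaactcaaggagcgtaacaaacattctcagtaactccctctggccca
OR5A1, lost, chr11:59443250-59443450: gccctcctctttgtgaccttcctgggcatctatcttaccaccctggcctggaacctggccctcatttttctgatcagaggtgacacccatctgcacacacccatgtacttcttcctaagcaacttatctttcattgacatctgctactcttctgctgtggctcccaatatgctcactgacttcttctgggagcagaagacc

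In every library the density of regions around the OR genes was below that of the rest of the genome. With DMSO, 37 regions were called in replicate 1 and 14 in replicate 2 (25.5 ± 16.3, SD, n = 2). With I-BET151, 45 were called in replicate 1 and 56 in replicate 2 (50.5 ± 7.78, SD, n = 2), a ratio of 1.98 between the means. Both I-BET151 libraries were above both DMSO libraries, but 2 against 2 libraries cannot give a p below 0.33 (exact permutation test, two-sided), which is the value obtained. The rest of the genome also had more regions per Mb in the I-BET151 lists, 32.7 ± 7.32 compared with 19.8 ± 9.88 (SD, n = 2 each), a ratio of 1.65. Relative to the rest of the genome in the same list, the density around the members was 38.8% and 30.7% in the DMSO libraries and 45.9% and 41.6% in the I-BET151 libraries (34.7 ± 5.75 and 43.8 ± 3.11, SD, n = 2 each). The difference of 9.01 percentage points had the same smallest possible p of 0.33. It was 5.06 without DMSO replicate 2 and turned to -3.29 when the windows were widened to 50 kb.

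The number of OR genes with a called region followed the same order. There were 33 such genes in DMSO replicate 1, 14 in DMSO replicate 2, 43 in I-BET151 replicate 1 and 50 in I-BET151 replicate 2 (p = 0.33, exact permutation test, two-sided). The difference of 23 genes between the means was 6 with equal numbers of peaks and 13.5 without DMSO replicate 2. The counts were 19.2%, 8.14%, 25% and 29.1% of the members, and the shares of all protein-coding genes, 86.8%, 77.9%, 87.2% and 89.2%, came in the same order. This order was not shared by the OR genes of other chromosomes, of which 21.1%, 10.1%, 19.3% and 14.9% had a called region. Their regions per Mb were 12.0, 5.49, 10.2 and 10.4 in these 4 libraries. By either measure both I-BET151 libraries fell between the DMSO libraries. The difference between the OR sets was not tested.

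Peaks near OR genes were of middling strength. Within each list, peaks were ranked by fold enrichment, the ratio of reads at the summit to the local background. The median percentile of the members' peaks was 49.9 in DMSO replicate 1, 41.2 in DMSO replicate 2, 62.5 in I-BET151 replicate 1 and 55.3 in I-BET151 replicate 2. Both I-BET151 libraries were above both DMSO libraries, by 13.4 percentile points between the means (p = 0.33, exact permutation test, two-sided). The median number of reads at the summit, recovered from fold enrichment and p-value, was 16, 18, 13 and 19. A share of 50.0%, 21.4%, 30.4% and 46.4% of the members' peaks had the lowest background that the caller allows, compared with 19.9%, 14.8%, 21.7% and 24.5% of all peaks. A peak at that background near the median of 13 to 19 reads carries a large counting error, and its absence from another list does not show closed chromatin.

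Regions were sorted by the libraries in which they were called. Gained regions, called in both I-BET151 lists and neither DMSO list, numbered 25 of 84 (29.8%), while 17.0% of all merged regions were gained. Lost regions, called in both DMSO lists and neither I-BET151 list, numbered 5 (5.95%), while 2.37% of all regions were lost. Regions called in all 4 lists numbered 8 (9.52%), against 15.6% of all regions. Of the rest, 15 were called only in DMSO replicate 1, 14 only in I-BET151 replicate 2, 8 only in I-BET151 replicate 1 and none only in DMSO replicate 2, and 9 had other combinations of lists. Around the OR genes of other chromosomes 12.1% of regions were gained and 3.45% lost. The gained regions had a median percentile of 64.2 and 57.3 in I-BET151 replicates 1 and 2, with a median of 13 and 18 reads at the summit, where all gained regions had 47.7 and 49.6. The 15 regions called only in DMSO replicate 1 had a median percentile of 42.9 and 15 reads, and those called only in I-BET151 replicate 1 or 2 had 26.9 and 25.5. Gained regions thus stood higher in their lists than regions called in 1 library, but both percentiles and patterns come from the same calls. A gained region lay within 10 kb of 29 members (16.9%), compared with 46.8% of all protein-coding genes. For lost regions this held for 5 members (2.91%), compared with 12.4%. These shares of genes were not adjusted for gene length.

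These counts depended on the size of the lists. When each list was reduced to its 38295 strongest peaks, the size of the shortest list, 7 regions were gained and 2 lost, and the counts over all regions went from 27885 to 5995 gained and from 3896 to 3820 lost. Leaving out I-BET151 replicate 1 gave 39 gained regions (64627 over all regions), and leaving out DMSO replicate 2 gave 20 lost regions (33910 over all regions). Between DMSO replicate 1 and I-BET151 replicate 1, lists of similar length, 33 member regions were called in the treated library alone and 25 in the control library alone (56.9% of the differing regions were those of the treated library, and 51.2% among all regions). Between the replicate 2 libraries these numbers were 47 and 5 (90.4% for the members and 92.7% for all regions).

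**Figure D2:**
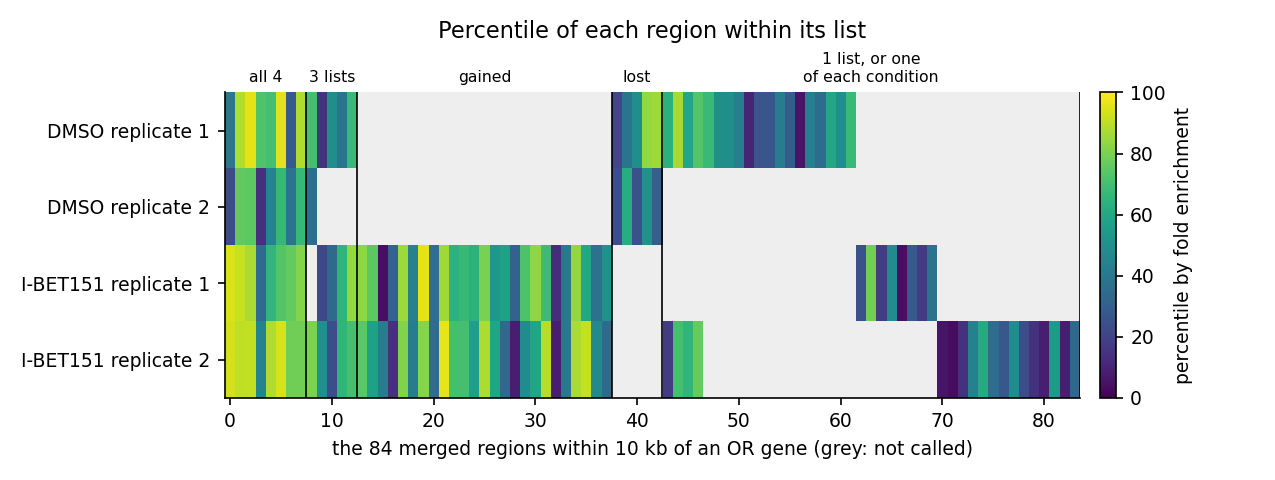
The 84 merged regions near OR genes (columns) in the 4 libraries (rows), ordered by calling pattern. Colour gives the percentile of the peak within its own list by fold enrichment and grey marks regions not called. The 25 gained regions range from 4.22 to 95.9 in I-BET151 replicate 1, with a median of 64.2, and the 8 regions called in that library only have a median of 26.9.

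Of the 5 gained regions with the highest fold enrichment in the lower of the I-BET151 lists, 4 lay in the class I cluster. The long gene model of OR51B5 spans many other class I genes, and 3 gained regions lay in its introns, among them that at the promoter of OR51I2. The region at chr11:5380604-5381202 upstream of the start of OR51M1 had a fold enrichment of 12.6 and 9.54 in I-BET151 replicates 1 and 2, with 25 and 23 reads at the summit. The region at chr11:5476282-5476831 had 9.36 and 13.9, with 17 and 34 reads. They stood at percentiles 95.9 and 81.7, and at 85.6 and 96.2, of the I-BET151 lists and were absent from both DMSO lists. The region 4306 bp upstream of OR51V1 (chr11:5204875-5205239) had 9.35 and 9.41. The region 10295 bp downstream of the start of OR52K2 (chr11:4459333-4459878) had 8.84 and 8.45. Outside this cluster, the region 9082 bp upstream of the class II gene OR10D3 (chr11:124174045-124174416) had 8.96 and 10.6. At the promoter of OR51I2 the gained region (chr11:5449405-5449811, 342 bp past the start) was weaker, with a fold enrichment of 4.90 and 5.17 and 9 and 12 reads, at percentiles 36.8 and 35.8.

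The 5 lost regions had a median percentile of 49.9 in DMSO replicate 1 and 30.3 in DMSO replicate 2, and fold enrichment is not on the same level in the lists of both conditions. The region 1642 bp past the start of OR10Q1 (chr11:58227138-58227538) had a fold enrichment of 5.43 in DMSO replicate 1 and 4.09 in DMSO replicate 2, with 20 and 16 reads. The region 2032 bp upstream of OR4X2 (chr11:48242888-48243541) had 3.62 and 4.56, and the region in the coding exon of OR5A1 (chr11:59443166-59443661) had 5.58 and 3.51. The regions upstream of OR8K3 (chr11:56307946-56308777, 3.88 and 3.37) and OR56A3 (chr11:5931317-5931651, 3.27 and 3.34) had the lowest fold enrichment in the lower of the DMSO lists. None of the 5 lost regions remained when only peaks with a −log10 p of at least 10 were kept.

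A further 8 regions were called in every library, and the rank of 1 of them within the lists differed between conditions in the main fit. These were compared by their rank within each list (limma on normal scores, 25627 regions called in all lists), where 3.41% of regions moved up with I-BET151 and 1.96% moved down at an adjusted p under 0.05. Among the 8 member regions, 1 moved up and 0 down. The one that rose was the region at the promoter of OR51D1 (chr11:4636932-4637512; the gene lies at chr11:4637477-4643060 on the plus strand), whose summit was 366 bp upstream of the start. Its fold enrichment was 3.63 and 3.32 in the DMSO libraries and 12.1 and 12.5 in the I-BET151 libraries. It had 18, 18, 30 and 47 reads at the summit in these libraries. The median over all 25627 regions, 28, 26, 27 and 55 reads, did not follow the lower depth with I-BET151 either. With scaled pileup the OR51D1 region rose by 2.47 (log2), of which 0.574 was beyond the median of all these regions. The OR51D1 region stood at percentiles 40.0 and 22.8 with DMSO and 94.9 and 93.5 with I-BET151, and the groups did not overlap. The normal score was higher by 2.02 (SE 0.379, adjusted p = 0.0121 by limma with Benjamini-Hochberg adjustment). The call was lost without DMSO replicate 1 (difference 1.97, adjusted p = 0.0827 by limma), without DMSO replicate 2 (difference 1.89, adjusted p = 0.0727) and with ranks by p-value (difference 1.63, adjusted p = 0.100).

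The other shared regions did not pass the test. The region 5916 bp upstream of OR5B21 (chr11:58513703-58514328) had fold enrichments of 3.40 and 3.70 with DMSO and 7.78 and 9.04 with I-BET151 (limma, unadjusted p = 0.0487, adjusted p = 0.199). The region near OR52A5 (chr11:5124027-5124619, 5.95, 5.29, 10.9 and 11.5 in the order of the libraries above) and that near OR10D3 (chr11:124194433-124195563, 5.87, 4.77, 8.56 and 9.01) kept high percentiles, between 66.8 and 91.7. Near OR2D3 the shared region (chr11:6925704-6927152) had its summit 27 bp from the start of ZNF215, a zinc finger gene, and up to 103 reads. In OR9Q1 and OR9Q2, neighbouring class II genes, 3 shared regions lay in introns or non-coding exons. For all 8 regions the fold enrichment with I-BET151 exceeded both DMSO values, but so did that of 90.1% of all shared regions, and the median over all peaks was 3.88 and 4.08 with DMSO and 5.56 and 6.03 with I-BET151. On the percentile scale, which removes this shift, the groups did not overlap for 3 of the 8 (OR51D1, OR5B21 and OR52A5), compared with 40.8% of all shared regions.

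**Figure D3:**
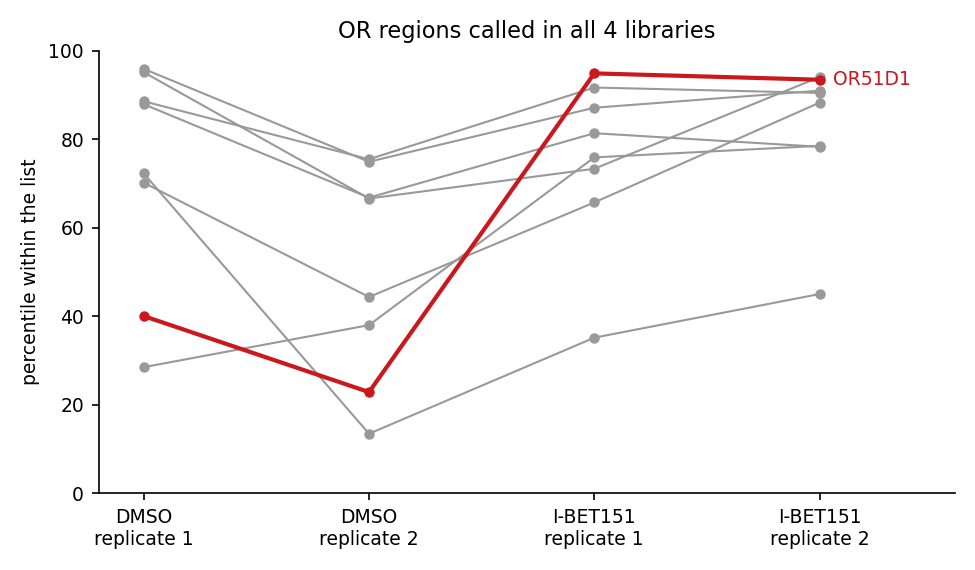
Percentile by fold enrichment (y axis, within each list) of the 8 OR regions called in all 4 libraries (x axis), with 1 line per region. The region at the OR51D1 promoter (red) went from 40.0 and 22.8 with DMSO to 94.9 and 93.5 with I-BET151; the other 7 are in grey.

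Accessibility differed along the chromosome. The members fell into 7 stretches separated by gaps over 1 Mb. The 51 class II genes from OR4C46 to OR5AK2, on the long arm next to the centromere, had 6 regions in all (6.10 per Mb), and 11.8% of these genes had one. In each library 1 to 3 regions were called there. The 3 genes from OR4C13 to OR4C45 had none. By contrast, the 21 genes from OR9Q1 to OR10V1 had 22 regions (42.2 per Mb) and the 22 genes from OR6X1 to OR8A1, near the end of the long arm, had 18 (42.2 per Mb), with 61.9% and 68.2% of genes near a region. The stretch with the class I genes, OR52B4 to OR10A3 with 67 genes, was between these, with 33 regions (23.8 per Mb). The remaining stretches were small, with 2 regions around the 7 genes from OR4B1 to OR4A47 and 3 around OR2AT4. The classes had similar densities: the 55 class I genes had 24.1 regions per Mb and the 117 class II genes 23.4 per Mb. The GC content of the windows was 36.0% in the sparse stretch from OR4C46 to OR5AK2 and between 37.5% and 42.0% in the other 6, and its part in the density was not tested.

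**Figure D4:**
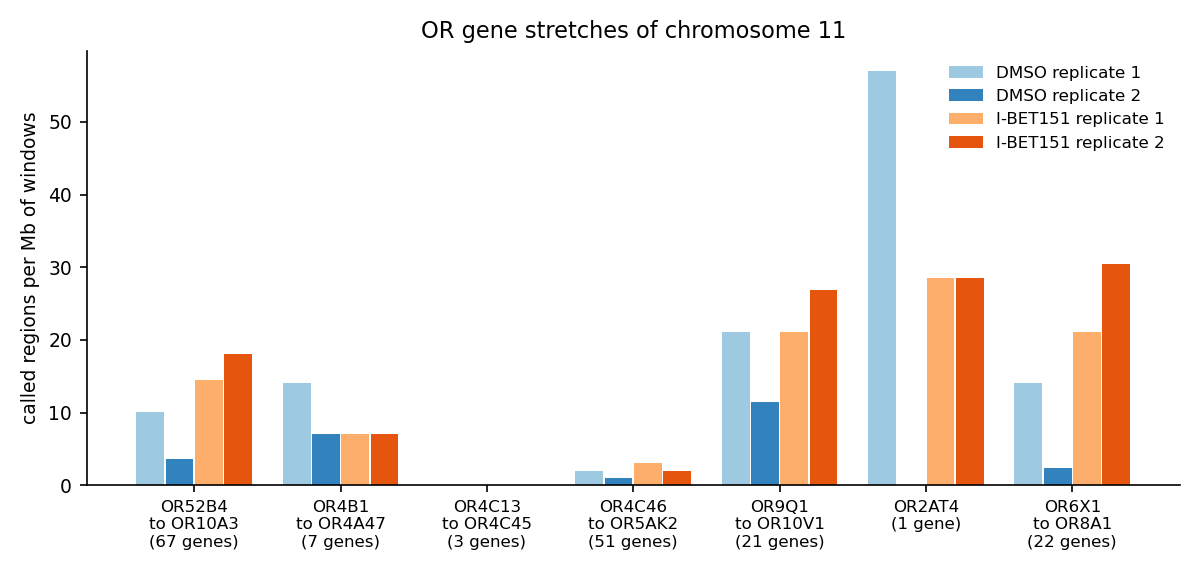
Called regions per Mb of gene windows in the 7 stretches of OR genes on chromosome 11, in chromosome order, with 1 bar per library. The 51 genes from OR4C46 to OR5AK2 had 1.02 to 3.05 regions per Mb in any library, and the 22 genes from OR6X1 to OR8A1 had 14.1 and 2.35 with DMSO and 21.1 and 30.5 with I-BET151.

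Gained regions were found in most of the denser stretches. There were 13 in the stretch with the class I cluster, 6 from OR6X1 to OR8A1, 4 from OR9Q1 to OR10V1, and 1 each in the stretch from OR4C46 to OR5AK2 and near OR2AT4. Among single genes, OR51B5 and OR9Q1 had 9 regions each, and both have gene bodies far longer than those of other OR genes that overlap further members. OR9Q2 had 4 regions, and OR1S2, OR2AT4, OR10D3 and OR8B12 had 3 each. A region counts for each member within 10 kb, so neighbouring genes share regions.

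The receptor coding sequence was touched by 7.14% of the regions. Of the 84 regions, 54 lay outside the member genes, 16 in introns, 8 in exons outside the coding part and 6 in a coding exon, and the median distance from summit to the nearest OR start was 6587 bp. The coding exons took up 4.57% of the windows, so the share of regions that touched them was not below their share of the windows. A region can touch an exon with its edge alone, and the 2 shares were not compared by a test. None of the 6 regions in coding exons was called in both I-BET151 lists. Those of OR51M1, OR6M1 and OR10S1 were called only in DMSO replicate 1, that of OR5A1 in both DMSO lists, that of OR10D3 only in I-BET151 replicate 1 and that of OR8D2 only in I-BET151 replicate 2 (8 reads at the summit). Apart from OR genes, a region had its summit 418 bp from the start of MMP26, a protease gene, and that near OR2D3 lay at the start of ZNF215, as given above.

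Base composition went with the calling pattern. The 15 regions called only in DMSO replicate 1 had a median GC content of 52.2% around the summit (46.3% to 57.2%), and the 5 lost regions 50.2%. The 25 gained regions had 43.3% (33.3% to 51.7%). Gained regions were also the lowest of these in the whole genome, with 52.2% for regions called only in DMSO replicate 1, 54.2% for lost and 45.3% for gained regions. The 8 shared member regions had 45.8%, and all shared regions 55.7%. The coding exons of the members had a GC content of 46.2%, their windows 37.7% and chromosome 11 as a whole 41.5%. Whether GC content contributed to the calls was not tested.

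**Figure D5:**
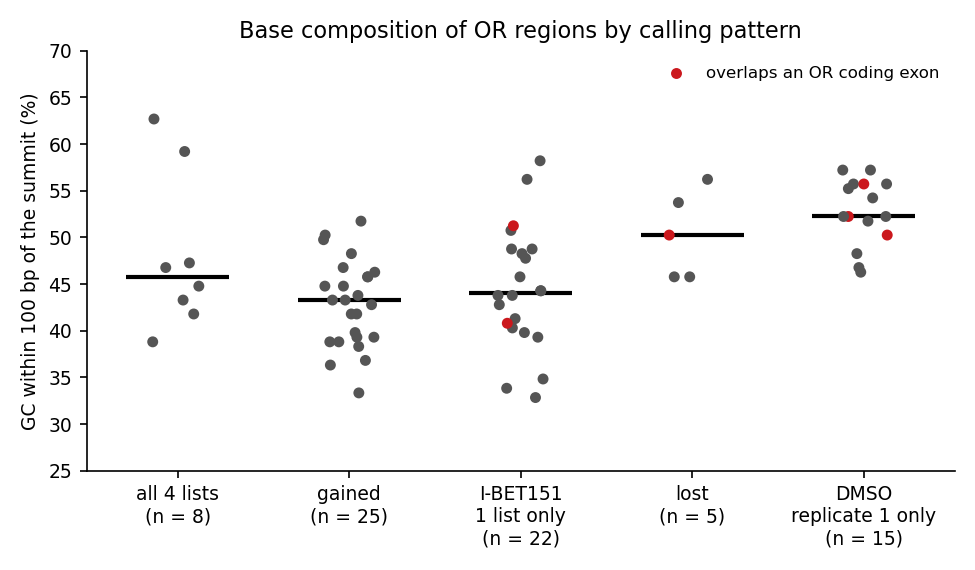
GC content within 100 bp of the summit (y axis, percent) of OR regions by calling pattern (x axis), with 1 point per region, red for regions in an OR coding exon and a bar at the median. Gained regions had a median of 43.3% and regions called only in DMSO replicate 1 a median of 52.2%. The 9 regions with other combinations of lists are not drawn.

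Matches to the CTCF consensus were found in a part of the OR regions. The exact consensus was present within 100 bp of the summit of 2 of 84 regions (2.38%, against 1.89% of all regions), the gained ones near OR5A2 and OR8A1. With 1 mismatch allowed, a choice made after the sequences were seen, it was present in 9 of the 25 gained regions (36.0%, against 14.1% of all gained regions), in 3 of the 8 shared regions (37.5%, against 9.18%) and in 0 of the 15 regions called only in DMSO replicate 1 (3.56% of all such regions). Among these were the regions of OR51D1, OR52A5 and OR51V1 and both gained regions nearest to OR51B5 (chr11:5380604-5381202 and chr11:5476282-5476831). With 2 mismatches the shares were 40.0% of gained member regions and 31.9% of all gained regions, and 26.7% and 25.4% of those called only in DMSO replicate 1. A match is a description of the sequence, and no binding was measured here.

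Motifs of other factors were searched as exact letters on both strands within 100 bp of the summit. The letters CCCNNGGG, from the consensus of the EBF factors that act at OR genes in olfactory neurons, were in 7 of 84 regions (8.33%, against 8.30% of all regions). The homeodomain letters TAATTA were in 4 (4.76%, against 4.67%), the forkhead letters TGTTTAC in 2 (2.38%, against 4.63%) and the GATA letters AGATAA in 17 (20.2%, against 14.2%).

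OR genes are similar to one another, so reads could in principle be placed at a wrong copy. Of 50-base words in the members' windows, 6.70% occurred more than once in the genome, and for chromosome 11 as a whole the share was 8.82%. Within 100 bp of the summit, none of the 84 regions consisted mainly of such words, and the highest share was 7.24%. The rest of each region was not examined separately.

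Promoters of genes that act with odorant receptors had a lower share of calls than all genes in each library. Of 21 genes for olfactory signalling, receptor trafficking and OR gene regulation, the promoter was called for 6 and 4 in DMSO replicates 1 and 2 and for 10 and 12 in I-BET151 replicates 1 and 2, and for 15 in at least 1 list (15 of 21, beside the 73.8% of all protein-coding genes given above, and the 61.1%, 56.1%, 66.5% and 70.4% in the single libraries). Those of GNAL (the olfactory G protein alpha subunit), REEP1, and the regulators of OR enhancers LDB1 and EBF1 were called in all 4 lists. Those of ADCY3 (the cyclase of olfactory cilia), GNB1, PDE1C, EBF2 and EBF3 were called in both treated libraries and in no control library. The share of all protein-coding genes with this pattern was not counted, so the pattern is not read as a result about these genes. Over all protein-coding genes, the called share was also higher in both treated libraries than in both control libraries. Many of these genes are used in other tissues as well. Of a list of 11 genes that mark olfactory sensory neurons, all of them among these 21, the promoter was called for 4, 2, 3 and 4 in the libraries in that order and for 6 in at least 1 list. GNAL and EBF1 were called in every list, ADCY3 in both treated libraries, GNG13 only in I-BET151 replicate 2, and RTP1 and CNGB1 only in DMSO replicate 1. The promoters of OMP (the olfactory marker protein), CNGA2 and CNGA4 (subunits of the olfactory cation channel), RTP2 and LHX2 were called in no list.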

How the data were processed

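ATAC-seq was performed on PPs derived from MEL1 (MEL1 INS GFP/W) with DMSO or I-BET151 (2 libraries each). The authors used Bowtie2 (v2.2.5) for alignment to hg38, dropped duplicate and mitochondrial reads, and ran MACS2 (v2.1.2) on each library without a control. A filter on mapping quality is not given in the sources used here. The deposited lists hold a display score (not used), the fold enrichment (the ratio of summit reads to local background, each plus 1), −log10 of the p-value and −log10 of the q-value, all from the authors, and reach down to a q-value of 0.05. The methods state a threshold of 5 for −log10 p, which the lists do not keep: 13.2%, 0%, 4.35% and 10.7% of the members' peaks were under it (DMSO replicates 1 and 2, I-BET151 replicates 1 and 2). The shortest peak was 200, 233, 200 and 256 bp, with 200 bp stated in the methods, so the read extension may have differed between lists.

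Peaks that shared at least 1 bp were joined into regions. Regions, promoters (1 kb on each side of the canonical start) and stretches (gaps over 1 Mb) were assigned with GENCODE release 44. Class I was families 51 to 56. Pileup in whole reads was solved from fold enrichment and p-value and fitted the p-value of 100% of peaks within 0.001 (−log10). Reads per library were derived from the lowest background and a genome size of 2.7e+09 bp. Read depth of single regions not called is unknown. Single values were compared with exact permutation tests, and shared regions with limma (3.58.1, R 4.3.3) on normal scores of ranks. The solution of the pileup and the limma fit were tested on simulated data. Python (3.11.15), pandas (2.3.3), numpy (2.4.6), scipy (1.17.1) and matplotlib (3.10.9) were used.

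Genes were named by rule. It took members with a promoter called in at least 2 lists, the nearest members of the shared regions, and members with most regions. It also took the nearest members of the 5 gained and 5 lost regions with the highest lower fold enrichment. Promoters called in a single list were named beyond this rule. Other named regions were chosen after their values were seen. The members and lists were chosen with earlier results of these data known. Alternatives were stricter thresholds (−log10 p of at least 5 or 10), equal numbers of peaks, coverage of 50% of the peak, each library left out, other windows, promoters of 3 kb, leaving out regions at other gene starts or in repeated sequence, ranks by p-value, scaled pileup and a replicate block. A crossed block and the CTCF mismatches were added after seeing the data.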

Additional observations from a re-analysis of the deposited data

How the results depend on the processing

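Of the values recomputed under each alternative for the 7 results above, the numbers of genes with a region and the median percentiles kept their direction, but the difference of 23 genes was 6 with equal numbers of peaks, 3.5 within gene bodies and 13.5 to 32.5 with each library left out, and that of 9.01 points in relative density 5.06 to 13.1. With equal numbers of peaks, gained regions came to 7, lost regions to 2, the difference in called promoters to 0 and the calls by limma to 0. With a −log10 p of at least 10, lost regions came to 0 and limma's calls to 0 of 3 shared regions, and with at least 5 the difference in called promoters was 0. Within gene bodies alone 7 regions were gained and 1 lost, and with windows of 50 kb 8 were lost and the difference in relative density turned to -3.29. Leaving out each library in turn gave 25 to 39 gained regions, 5 to 20 lost regions and a difference in called promoters of -0.5 to 2.5. Limma's calls among member regions were 0 without either DMSO library (2 libraries against 1, the lone library assumed to vary like the others), 1 without either I-BET151 library, 0 with ranks by −log10 p and 8 of 8 with scaled pileup, where the median of all regions moved by 1.9 (log2). The cause of these changes was not tested. With the replicate number as a replicate block 1 member region was called. The deviations of same-numbered libraries had a correlation of -0.14, which cannot show whether these libraries shared a culture or day. With crossed numbers as a block, a fit added after seeing the data, 1 member region and 3552 of all regions were called. The part of depth in the calls was not tested.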
